A study of Mus musculus with 15 samples.

Results

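Complex I of the mitochondrial respiratory chain is described here through the genes named Nduf followed by a, b, c, s or v and a number. A gene was taken where the array annotation gave a probe set that single symbol, and the brightest probe set over all arrays stood for the gene. This left 34 genes, read by 38 probe sets, out of 19296 genes in all. The assembly factors named Ndufaf were not counted as members, and no filter on low values was applied, so all 34 entered every comparison. Ndufb1 and Ndufb4 were not analysed here, and neither were 3 probe sets that carried a matching symbol beside another one. Within the family, genes and probe sets were chosen by names and brightness only, not by the differences between groups. The family itself was chosen with earlier results of these data known.

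Complex I is the entry point of electrons from NADH into the respiratory chain. Its peripheral arm reaches into the matrix, takes electrons from NADH through a flavin and a chain of iron-sulfur clusters, and hands them to ubiquinone where it meets the membrane arm, which pumps protons. The catalytic core is built of nuclear encoded subunits in the peripheral arm and mitochondrially encoded subunits in the membrane arm, and accessory subunits surround both. Haematopoietic stem cells are known for low mitochondrial respiration and a reliance on glycolysis at rest, and respiration rises as they divide and differentiate. The genes are grouped below by where their products sit in the complex.

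RNA was measured on 15 Affymetrix arrays from sorted bone marrow cells of wild type C57Bl/6 mice, all labelled male. Haematopoietic stem cells (HSC; no lineage markers, positive for c-Kit, Sca-1 and CD150, negative for Flk2 and CD48) were compared with granulocyte/macrophage progenitors (GMP; no lineage markers and no Sca-1, positive for c-Kit, CD34 and the Fc gamma receptor). The groups were old HSC (3 arrays), young HSC (5), old GMP (3) and young GMP (4), with young mice of 6 to 12 weeks and old mice of 22 to 30 months. Cells were sorted in 2 rounds and the RNA was amplified with a NuGEN whole-transcript kit. Whether the RNA on an array came from 1 mouse or a pool is not stated in the labels. The p-values therefore cover only the spread among these arrays, which may be technical, and the wide age ranges cannot be resolved further. In bulk RNA, fewer cells of a type and less RNA per cell cannot be told apart.

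Values are log2 expression levels as deposited, and differences are log2 fold changes. The sorted cells carried their markers. The mean of the HSC marker list was 9.83 in old and 9.84 in young HSC against 7.47 and 7.41 in old and young GMP, and that of the GMP marker list was 6.76 and 6.74 in HSC against 10.87 and 10.99 in GMP. Replicate 4 of young HSC and of young GMP stood apart. Their means of 3 Y-linked genes were 4.94 and 5.20, while the other arrays read 7.12 to 8.80. The X-linked Xist read 4.72, 11.16, 10.02, 11.51 and 10.26 on young HSC replicates 1 to 5. It read 5.49, 10.51, 8.92 and 10.95 on young GMP replicates 1 to 4, and 5.46 to 5.84 on old arrays. Apart from replicate 1 of both cell types, the young arrays thus go against the label of a male. On young HSC replicates 2, 3 and 5 and young GMP replicates 2 and 3, high Xist came with Y-linked means of 7.12 to 8.47. Age and apparent sex were thus mixed in every old against young comparison, and the part of sex was not tested. The spread of the values also differed: the interquartile range over all genes was 2.15 on young HSC replicate 4 and 2.41 to 2.65 on the other young HSC arrays, against 1.90 to 2.27 in old HSC. Results that rest on replicate 4 are given with and without it.

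The complex I genes were lowest in old HSC. The mean of the 34 genes was 9.62, 9.53 and 9.85 on the old HSC arrays and 10.24, 10.54, 10.52, 9.74 and 10.56 on the young HSC arrays. It was 10.33, 10.38 and 10.50 in old GMP and 10.82, 10.80, 10.75 and 10.41 in young GMP. Old HSC averaged 9.67 ± 0.17 (SD, n = 3) and young HSC 10.32 ± 0.35 (SD, n = 5), old GMP 10.40 ± 0.09 (SD, n = 3) and young GMP 10.69 ± 0.19 (SD, n = 4). Only young HSC replicate 4 fell among the old HSC arrays, and young GMP replicate 4 among the old GMP arrays. Without both replicate 4 arrays the young means were 10.47 ± 0.15 (SD, n = 4) in HSC and 10.79 ± 0.04 (SD, n = 3) in GMP. Young HSC and old GMP, neighbours in this order, overlapped.

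**Figure D1:**
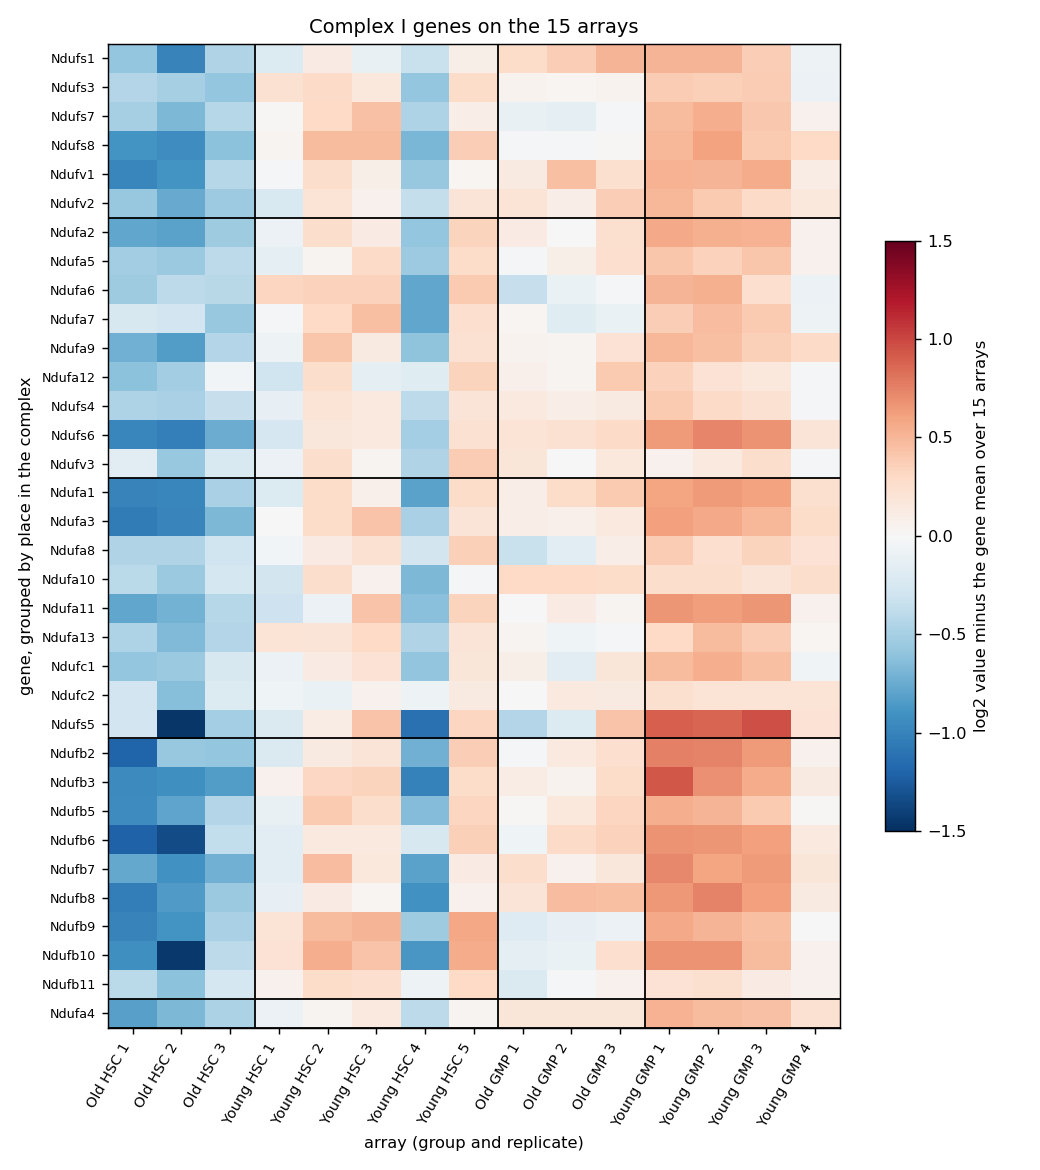
Each cell is the log2 value of a complex I gene on an array minus that gene's mean over the 15 arrays, with genes grouped by place in the complex (rows) and arrays by group (columns). The 3 old HSC columns are blue for nearly every gene, replicates 1 to 3 of young GMP are red, and replicate 4 of both young groups is paler or bluer than its group.

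Gene by gene the order was nearly fixed. Old HSC had the lowest group mean for all 34 genes. The order old HSC, young HSC, old GMP, young GMP held for 22 genes, old GMP came before young HSC for 10, and young GMP read below old GMP for 2, Ndufa10 and Ndufs1. Young HSC replicate 4 was the lowest array of its group for 32 genes and read below the old HSC mean for 11. Young GMP replicate 4 was the lowest of its group for 33 genes and read below the old GMP mean for 18.

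Old HSC had less complex I RNA than young HSC, and no gene pointed the other way. Of the 34 genes, 25 were lower in old HSC at an adjusted p under 0.05 (limma, Benjamini-Hochberg over all genes), and 0 were higher. Over all 19296 genes, 9.22% were called lower and 2.25% higher. All 34 differences were negative, from -1.09 to -0.28, with a median of -0.61 against 0.03 for all genes. For 9 of the 34 genes every old HSC array lay below every young HSC array, which held for 7.69% of all genes. With young HSC replicate 4 left out, this count was 32 of 34, against 18.8% of all genes. These genes were read by bright probe sets, and bright genes as a whole were lower in old HSC: with genes split into 10 groups by mean level, 17 of the 23 members in the brightest group were called lower, against 29.1% of all genes there, and 7 of the 10 in the next group, against 25.6%.

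**Figure D2:**
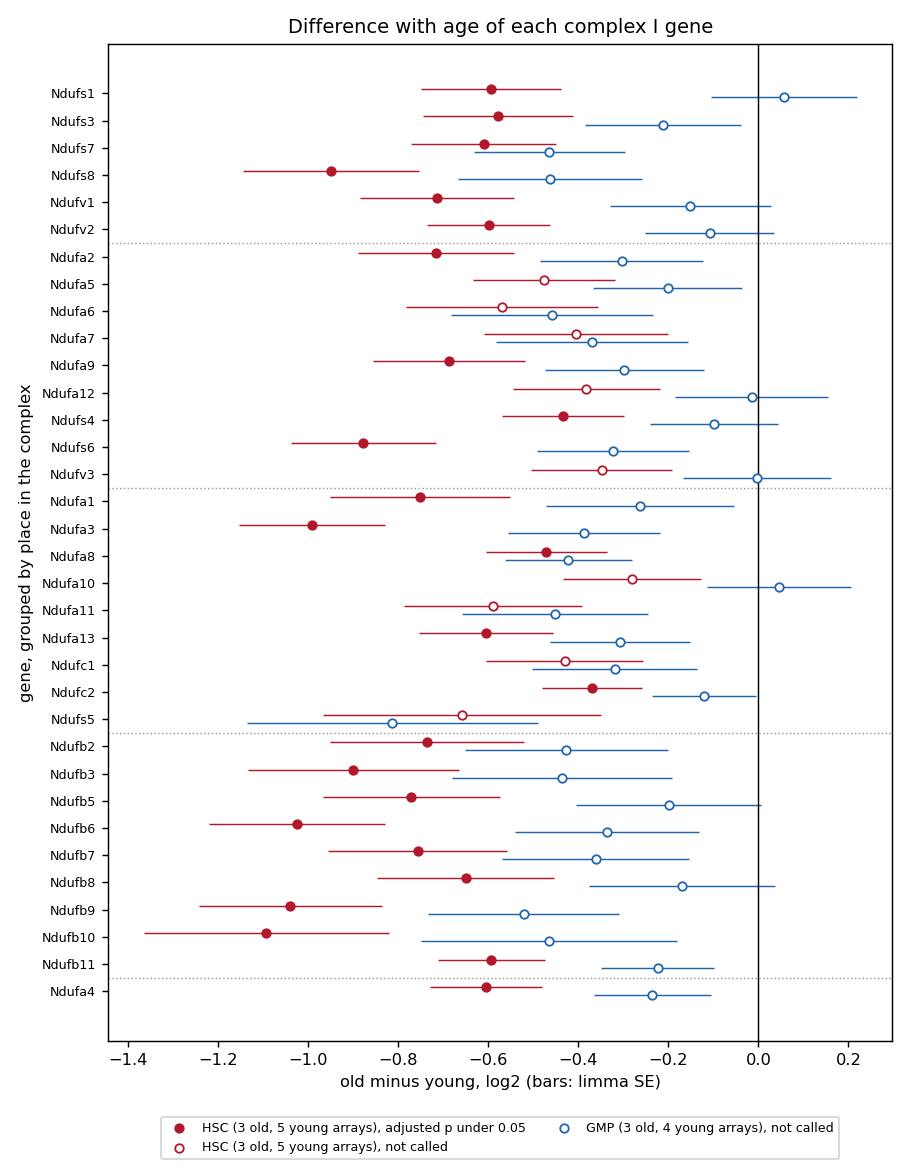
Each point is the old minus young difference of a complex I gene (log2, x axis) with its limma SE as a bar, red for HSC and blue for GMP, filled where the adjusted p was under 0.05. All red points lie left of 0 and 25 are filled, while the blue points lie mostly left of 0 and none is filled.

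All 6 measured genes of the catalytic core fell in old HSC, with a median difference of -0.60. Ndufv1, which binds NADH and the flavin, read 8.50, 8.58 and 9.05 in old HSC and 9.44, 9.74, 9.56, 8.90 and 9.50 in young HSC, a difference of -0.71 ± 0.17 (limma SE; adjusted p = 0.0156). Young replicate 4 lay below the highest old array and the other young arrays above it. Ndufv2, its partner with an iron-sulfur cluster, read 9.76, 9.57 and 9.79 in old and 10.10, 10.54, 10.39, 9.97 and 10.52 in young HSC, a difference of -0.60 ± 0.14 (adjusted p = 0.0128). Its groups did not overlap. Ndufs1, the large subunit that carries further clusters of the electron path, read 8.92, 8.49 and 9.04 in old and 9.29, 9.62, 9.39, 9.16 and 9.58 in young HSC, a difference of -0.59 ± 0.16 (adjusted p = 0.0227). It too separated old from young on every array.

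The other 3 core genes belong to the part of the arm that reaches ubiquinone. Ndufs8, which carries clusters of the electron path, read 8.46, 8.42 and 8.74 in old and 9.39, 9.83, 9.83, 8.67 and 9.72 in young HSC, a difference of -0.95 ± 0.20 (adjusted p = 0.00794). Ndufs7, with the last cluster before ubiquinone, read 8.50, 8.32 and 8.57 in old and 9.01, 9.29, 9.43, 8.53 and 9.09 in young HSC, a difference of -0.61 ± 0.16 (adjusted p = 0.0232). Ndufs3, a core subunit without a cluster, read 9.99, 9.94 and 9.85 in old and 10.66, 10.72, 10.59, 9.85 and 10.71 in young HSC, a difference of -0.58 ± 0.17 (adjusted p = 0.0324). In all of these genes young replicate 4 lay within or at the edge of the old range, and the other young arrays lay above it. Without both replicate 4 arrays the differences were -1.16 for Ndufs8, -0.75 for Ndufs7 and -0.74 for Ndufs3.

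Among the accessory genes of the peripheral arm, 4 of 9 fell (Ndufs6, Ndufa2, Ndufa9 and Ndufs4), with a group median of -0.48. Beside this count and those of the other parts, 9.22% of all genes were called lower. In the brightest of the 10 groups by mean level and the next, 29.1% and 25.6% were. Differences between the parts of the complex were not tested. Ndufs6, a zinc-binding subunit, had the largest difference of the accessory genes of this arm, -0.88 ± 0.16 (adjusted p = 0.00448). It was singled out after its values were seen, and read 9.84, 9.79 and 10.07 in old HSC and 10.57, 10.99, 10.96, 10.31 and 11.05 in young HSC, without overlap. Ndufs4, whose loss is a widely used mouse model of mitochondrial encephalopathy, read lower by a smaller step, -0.43 ± 0.14 (adjusted p = 0.0442). Ndufa5, Ndufa6, Ndufa7, Ndufa12 and Ndufv3 did not pass, with differences from -0.57 to -0.35. Ndufv3, a subunit next to the NADH site, read 10.16, 9.75 and 10.08 in old and 10.23, 10.58, 10.36, 9.86 and 10.70 in young HSC, a difference of -0.35 ± 0.16 (adjusted p = 0.140).

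In the membrane arm near the peripheral arm, 5 of 9 accessory genes fell (Ndufa3, Ndufa1, Ndufa13, Ndufa8 and Ndufc2), with a group median of -0.59. Ndufa3, a small membrane subunit, read 8.89, 8.95 and 9.26 in old HSC and 9.95, 10.22, 10.37, 9.45 and 10.13 in young HSC. Every old array lay below every young one, and the difference of -0.99 ± 0.16 had the smallest adjusted p of the 34 genes, 0.00212. Ndufa1, an X-linked subunit needed for assembly of the complex, read 10.59, 10.61 and 11.10 in old and 11.38, 11.87, 11.67, 10.79 and 11.87 in young HSC, a difference of -0.75 ± 0.20 (adjusted p = 0.0239). Young replicate 4 fell inside the old range. Ndufa10, a subunit related to nucleoside kinases, had the smallest difference of all members, -0.28 ± 0.15 (adjusted p = 0.215). It read 10.80, 10.64 and 10.94 in old and 10.93, 11.47, 11.26, 10.53 and 11.18 in young HSC, and the groups overlapped. Ndufs5, a cysteine-rich subunit on the intermembrane side, varied most between old arrays, at 9.05, 7.87 and 8.82, and its difference of -0.66 ± 0.31 did not pass (adjusted p = 0.153). Ndufa11 and Ndufc1 did not pass either, at -0.59 and -0.43.

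All 9 measured accessory genes of the far part of the membrane arm fell, with a median of -0.77. This group, the Ndufb subunits around the proton pumps at the distal end, held 4 of the 6 largest differences. Ndufb10 read 9.25, 8.72 and 9.77 in old HSC and 10.38, 10.71, 10.60, 9.29 and 10.72 in young HSC, a difference of -1.09 ± 0.27 (adjusted p = 0.0183), or 2.13-fold. Ndufb9, a subunit of the LYR protein family, read 9.85, 9.96 and 10.37 in old and 11.06, 11.33, 11.36, 10.32 and 11.43 in young HSC, a difference of -1.04 ± 0.20 (adjusted p = 0.00606). In both genes every young array other than replicate 4 lay above all the old ones.

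Ndufb6, a single-pass membrane subunit, read 9.84, 9.71 and 10.68 in old HSC and 10.88, 11.20, 11.20, 10.81 and 11.41 in young HSC, a difference of -1.02 ± 0.20 (adjusted p = 0.00535). The groups did not overlap, although old replicate 3 came close to young replicate 4. Ndufb3 read 7.84, 7.87 and 7.95 in old and 8.85, 9.10, 9.12, 7.78 and 9.07 in young HSC, a difference of -0.90 ± 0.23 (adjusted p = 0.0225). Here young replicate 4 was below every old array, and without both replicate 4 arrays the difference was -1.15 ± 0.11. Ndufb11, an X-linked subunit whose human gene is mutated in a sideroblastic anaemia, read 11.06, 10.85 and 11.21 in old and 11.54, 11.75, 11.72, 11.39 and 11.77 in young HSC, a difference of -0.59 ± 0.12 (adjusted p = 0.00704) without overlap. Ndufb2, Ndufb5, Ndufb7 and Ndufb8 fell by 0.74, 0.77, 0.76 and 0.65 on the log2 scale.

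Ndufa4 carries a complex I name but is known as a subunit of complex IV, cytochrome c oxidase. It read 11.06, 11.19 and 11.39 in old HSC and 11.78, 11.91, 12.02, 11.48 and 11.91 in young HSC, a difference of -0.60 ± 0.12 (adjusted p = 0.0079). The groups did not overlap, and its difference was close to the median of the 34 genes.

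The number of genes called in HSC depended on which arrays were kept and on how the spread of the arrays was treated, while the differences stayed negative for all 34 genes except with 1 covariate given below. With both young replicate 4 arrays left out, 33 of the 34 genes were called lower (19.6% of all genes), with a median of -0.77, and the exception was Ndufa12 at -0.43 (adjusted p = 0.0519). Without old HSC replicate 1 or 2 the counts were 7 and 4, with 1.92% and 1.44% of all genes called lower. Without young HSC replicate 2, 3 or 5 they were 12, 14 and 16, with 4.02%, 4.09% and 5.83% of all genes. Fitting only the HSC arrays gave 12, and fewer of all genes were called there as well.

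**Figure D3:**
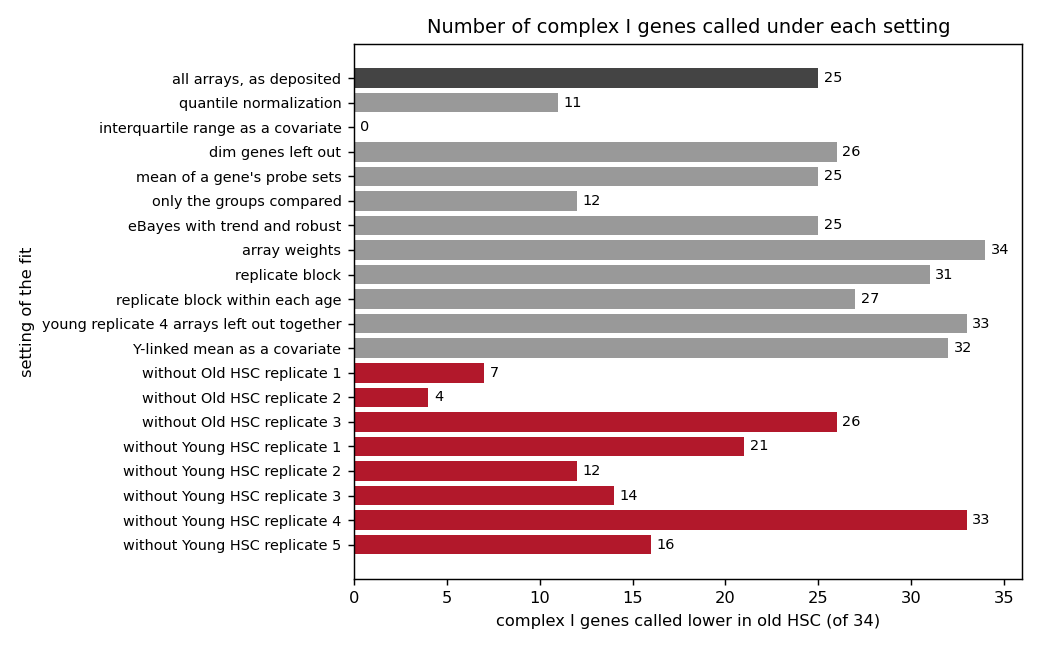
Bars give the number of the 34 complex I genes called lower in old HSC (x axis) under each setting of the fit (y axis), dark for the setting used in the text and red where 1 array was left out. The count runs from 0 with the interquartile range as a covariate to 34 with array weights. The calls over all genes, not drawn here, also fell with that covariate and rose with these weights.

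Quantile normalization of the table, which gives every array the same spread, brought the median of the 34 genes to -0.36 with all 34 still negative, and 11 were called lower (Ndufa2, Ndufa3, Ndufa4, Ndufb3, Ndufb6, Ndufb9, Ndufb10, Ndufb11, Ndufs6, Ndufs8 and Ndufv1). All genes called then split into 767 lower and 561 higher, against 1779 and 434 in the values as deposited. The means of the 34 genes after this step were 9.84, 9.89 and 9.92 in old HSC and 10.18, 10.43, 10.44, 9.86 and 10.47 in young HSC, so that young replicate 4 again lay among the old arrays and the others above. In the brightest of the 10 groups of genes the median of all genes moved from -0.29 to -0.02 and that of the 23 members from -0.60 to -0.33. In the next group it moved from -0.30 to -0.04 for all genes and from -0.61 to -0.37 for the 10 members. With each array's interquartile range as a covariate, 0 members were called in HSC (limma), and 105 genes in all. The median was then -0.28, and 32 of the 34 differences were negative.

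**Figure D4:**
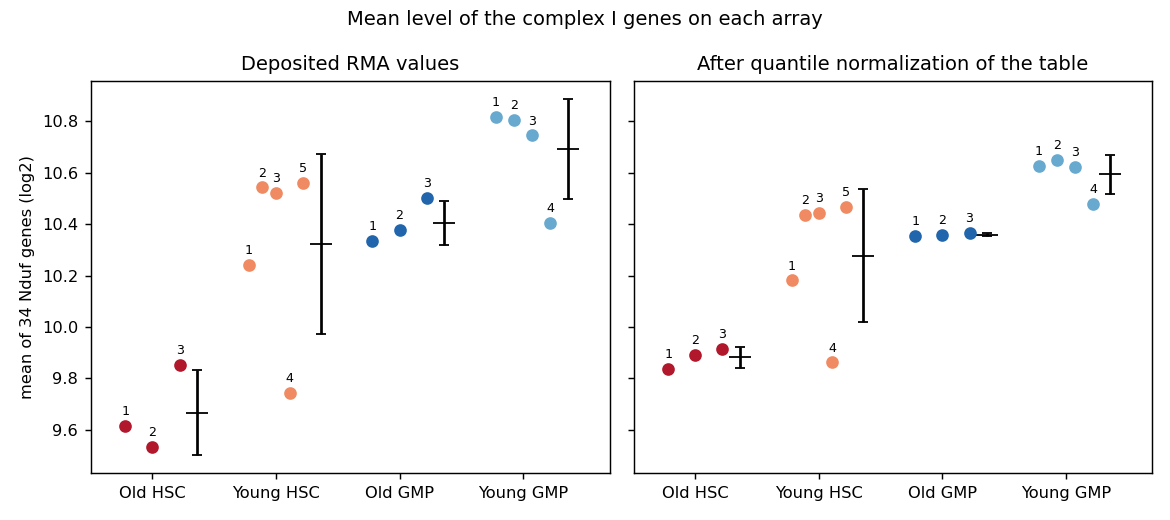
Each point is the mean log2 value of the 34 complex I genes on an array, numbered by replicate, with the group mean and SD as a bar, for deposited values (left) and after quantile normalization (right). The old HSC arrays and young HSC replicate 4, which lies among them, are the lowest in both panels.

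**Figure D5:**
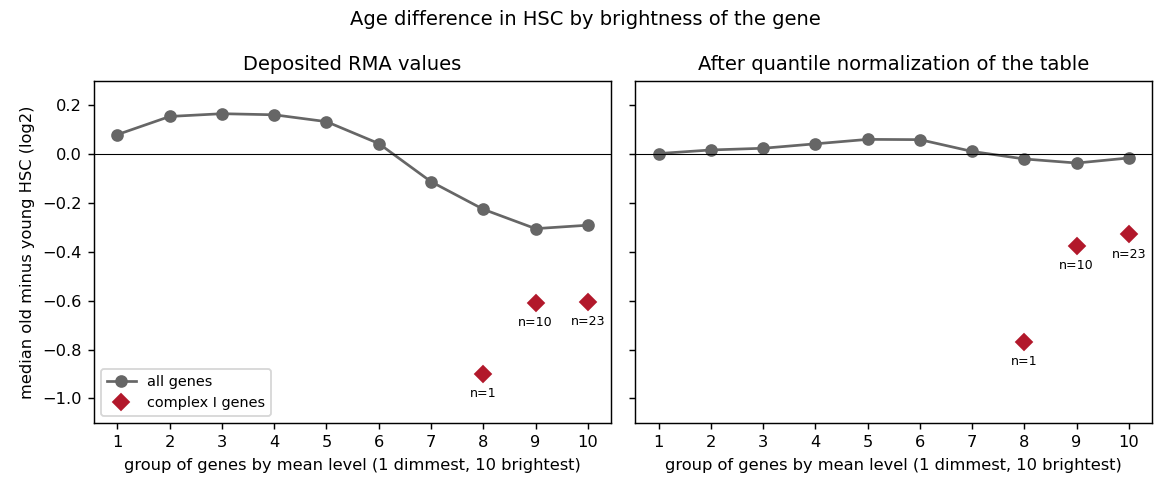
Genes were split into 10 groups by mean level (x axis) and the median old minus young difference in HSC is shown in log2 (y axis) for all genes (grey line) and for the complex I genes (red diamonds, with their number). The grey line falls below 0 in the bright groups in the left panel and lies near 0 in the right one, and the diamonds lie below it in both.

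Ndufs3, Ndufa11, Ndufb11 and Ndufc1 had a further, dimmer probe set, and these were tested among all probe sets with a single symbol. That of Ndufs3, with a mean of 7.63 over all arrays, was higher in old HSC by 0.54 ± 0.13 (adjusted p = 0.0203), against the -0.58 of the brightest one, so the direction of Ndufs3 depended on the probe set. The dimmer probe set of Ndufa11 was lower at -0.85 ± 0.25 (adjusted p = 0.0359), a call that the brightest one missed. Ndufb11 read -0.50 on its dimmer probe set (adjusted p = 0.0627) and Ndufc1 read -0.05 (adjusted p = 0.883).

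Nuclear genes of the respiratory chain are known targets of NRF1 and of the ETS family factor GABP, so the 250 bases before the start of each gene were searched for their core motifs. RefSeq windows (GRCm38.p6) matched 31 of the 34 genes by symbol, giving 33 windows, and all 32851 windows of the same length served as background. The NRF1 core (GCGCATGC, or GCATGCGC on the other strand, which overlap each other when the word is repeated) was in 3 member windows, those of Ndufa6, Ndufa8 and Ndufa11, or 9.09% against 2.26% of all windows. The ETS core (CCGGAAG, or CTTCCGG) was in those of Ndufb6, Ndufb7 and Ndufs3, or 9.09% against 6.91%. Of the 6 genes with either core, 4 were called lower in old HSC, and of the 25 matched genes with neither, 18 were. The windows of all 6 are printed, whether called or not, to show where the letters lie. Capitals mark the cores, which start 232 bases before the gene start in Ndufb6, 20 in Ndufb7, 27 in Ndufs3, 8 in Ndufa8 and 83 in Ndufa6. Ndufa6 and Ndufa11 were not called in HSC. In Ndufa11 the capitals mark a CRE core, described after the sequences, at 158 bases and an NRF1 core read on both strands from 60 and 58 bases before the start.
Ndufb6 (chr4:40279422-40279671, minus strand): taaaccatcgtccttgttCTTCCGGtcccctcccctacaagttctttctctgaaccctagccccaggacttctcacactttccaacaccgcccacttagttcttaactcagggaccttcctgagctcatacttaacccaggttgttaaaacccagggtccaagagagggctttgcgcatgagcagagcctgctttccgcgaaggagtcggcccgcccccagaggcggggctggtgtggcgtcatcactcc
Ndufb7 (chr8:83566508-83566757, plus strand): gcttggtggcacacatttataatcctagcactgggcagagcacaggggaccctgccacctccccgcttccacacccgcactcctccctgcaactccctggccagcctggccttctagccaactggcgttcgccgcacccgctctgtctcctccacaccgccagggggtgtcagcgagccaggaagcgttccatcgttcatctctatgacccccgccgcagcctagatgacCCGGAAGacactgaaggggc
Ndufs3 (chr2:90904722-90904971, minus strand): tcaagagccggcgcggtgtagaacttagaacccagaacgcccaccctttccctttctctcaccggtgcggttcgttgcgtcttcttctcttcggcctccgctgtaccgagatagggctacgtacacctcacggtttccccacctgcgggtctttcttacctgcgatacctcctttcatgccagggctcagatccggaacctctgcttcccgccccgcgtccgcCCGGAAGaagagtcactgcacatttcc
Ndufa8 (chr2:36049339-36049588, minus strand): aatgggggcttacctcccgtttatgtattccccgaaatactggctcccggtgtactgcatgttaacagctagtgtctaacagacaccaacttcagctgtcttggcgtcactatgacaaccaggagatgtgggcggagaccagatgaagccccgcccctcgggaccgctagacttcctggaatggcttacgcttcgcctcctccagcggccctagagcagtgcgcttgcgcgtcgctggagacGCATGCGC
Ndufa6 (chr15:82354292-82354541, minus strand): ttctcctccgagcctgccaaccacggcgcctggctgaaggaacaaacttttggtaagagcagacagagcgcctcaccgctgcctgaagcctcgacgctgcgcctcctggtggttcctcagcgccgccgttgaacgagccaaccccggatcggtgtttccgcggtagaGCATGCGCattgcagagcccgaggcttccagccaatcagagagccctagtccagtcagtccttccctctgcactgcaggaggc
Ndufa11 (chr17:56717512-56717761, plus strand): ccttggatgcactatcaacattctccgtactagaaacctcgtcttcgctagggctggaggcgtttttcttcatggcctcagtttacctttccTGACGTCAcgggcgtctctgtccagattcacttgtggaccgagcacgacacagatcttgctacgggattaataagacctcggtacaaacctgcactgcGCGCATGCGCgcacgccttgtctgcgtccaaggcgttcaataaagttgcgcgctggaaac
The letters describe these windows and show no binding. The CRE core (TGACGTCA, the same on both strands) was in 3 member windows (Ndufa10, Ndufa11 and Ndufb2), or 9.09% against 1.55%. The YY1 core (AAGATGG, or CCATCTT) depended on where the window ended: it was in 0 of the 33 windows before the start, against 4.49% of all, and with the 50 bases after the start in 7 windows, or 21.21% against 6.34%. The shares of the NRF1, ETS and CRE cores in the longer member windows were 9.09%, 12.12% and 9.09%, against 2.71%, 8.86% and 1.79%. The median GC content was 57.6% in member windows and 52.4% in all. The RNA of the factors themselves did not pass in old against young HSC, at -0.03 for Nrf1 (adjusted p = 0.882), -0.08 for Gabpa (adjusted p = 0.708) and -0.05 for Yy1 (adjusted p = 0.771), while Gabpb1, the partner subunit of GABP, fell by 0.60 on the log2 scale (adjusted p = 0.0186).

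In GMP no complex I gene passed the test with age. Of the 34 genes, 0 were called lower and 0 higher (limma), as 0% of all genes were called in either direction. The smallest adjusted p of a member was 0.900, and 7 members had an unadjusted p under 0.05, as did 870 of all genes. The differences were negative for 32 genes, with a median of -0.31 against -0.01 for all genes, and ran from -0.81 for Ndufs5 to 0.06 for Ndufs1. For 9 genes every old GMP array lay below every young one, which held for 3.72% of all genes, and without young replicate 4 for 29 genes, against 11.9%.

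Ndufa8, a cysteine-rich subunit facing the intermembrane space, had the smallest p in GMP. It read 9.18, 9.36 and 9.62 in old GMP and 9.90, 9.77, 9.85 and 9.73 in young GMP, a difference of -0.42 ± 0.14 (adjusted p = 0.900). Ndufs7 came next at 8.88, 8.85 and 8.98 in old and 9.47, 9.54, 9.40 and 9.06 in young GMP, a difference of -0.46 ± 0.17 (adjusted p = 0.950). Neither gene's groups overlapped. With both young replicate 4 arrays left out, 4 genes were called lower in old GMP, with 0.876% of all genes: Ndufa6 (-0.59, adjusted p = 0.0203), Ndufb3 (-0.58, adjusted p = 0.0237), Ndufb9 (-0.65, adjusted p = 0.0237) and Ndufs7 (-0.57, adjusted p = 0.0281).

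The age effects of both cell types were set against each other directly, by subtracting the old minus young difference in GMP from that in HSC. No member passed, in either direction (limma), and over all genes 0.0674% were called lower and 0.0259% higher. It was negative for 33 of the 34 genes, with a median of -0.37 against 0.02 for all genes. Bright genes as a whole were negative here too: in the brightest of the 10 groups the median was -0.39 for the 23 members and -0.27 for all genes, and in the next group it was -0.22 for the 10 members and -0.26 for all genes. After quantile normalization the median of the 34 genes was -0.15, with 28 negative. With age and replicate number as a block, which compares HSC and GMP arrays of the same number, 0 members were called (limma; 14 at an unadjusted p under 0.05), and 0.0881% of all genes were called lower. In the fit without the block the smallest adjusted p of a member was 0.325 (limma). There 7 members had an unadjusted p under 0.05, as did 2165 of all genes. A decrease in HSC that is larger than that in GMP was therefore not shown by the test.

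Ndufs1 came closest. It was 9.77, 9.87 and 10.01 in old GMP and 10.01, 10.01, 9.86 and 9.42 in young GMP, with overlap, while its HSC arrays separated by age, and the difference of differences was -0.65 ± 0.22 (adjusted p = 0.325). Ndufa3 was 10.04, 10.01 and 10.09 in old GMP and 10.56, 10.51, 10.44 and 10.22 in young GMP, below on every old array, and its difference of differences was -0.60 ± 0.23 (adjusted p = 0.393). Without young HSC replicate 4 alone, 1 member was called here, with 0.876% of all genes called lower. Array weights give less weight to arrays far from their group. With them members were called lower in old GMP and in the difference of differences, and the calls over all genes rose too. Both counts are given together where the dependence on processing is described.

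HSC had less complex I RNA than GMP, in young mice for 11 of 34 genes at an adjusted p under 0.05 and in old mice for 26. None was called higher in HSC at either age (limma), and 20 and 30 members had an unadjusted p under 0.05. In young mice 10.9% of all genes were called lower in HSC and 13.6% higher, and in old mice 13% and 9.25%. Among bright genes more were called lower: in the brightest of the 10 groups 7 of 23 members in young and 20 of 23 in old mice, against 19.9% and 39.2% of all genes there, and in the next group 4 and 5 of 10 members, against 19.7% and 33.3%. The median difference of the members was -0.37 in young and -0.73 in old mice, against -0.05 and 0.02 for all genes. Every HSC array lay below every GMP array for 3 members in young mice (Ndufa4, Ndufb8 and Ndufc2), against 9.51% of all genes, and for 32 in old mice, against 18.4%, the exceptions being Ndufa8 and Ndufs5. The count in young mice was 3 without young GMP replicate 1, 2 or 3 or young HSC replicate 1, and 5 without young HSC replicate 4. In these fits 9.05%, 8.46%, 8.38%, 9.34% and 13% of all genes were called lower, so the members were near the share of all genes. After quantile normalization 16 members were called at each age, with 13.3% of all genes called lower in young and 12.2% in old mice. Same-numbered young HSC and young GMP arrays deviated together, so a fit with age and number as a block was added after the data were seen. For old HSC and old GMP, 2 of 3 pairs had a correlation of deviations over 0.1 (0.05 to 0.42), so pairing is less sure there. The block gave 22 members lower in young mice (median -0.41), with 15.8% of all genes called lower, and 31 in old mice, with 16.2%. Young HSC replicate 5 has no GMP array of its number and dropped out of this fit's difference. These contrasts use the same HSC and GMP arrays as the age comparisons.

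By place in the complex, the genes lower in young HSC were 3 of 6 in the core, 1 of 9 among the accessory genes of the peripheral arm, 3 of 9 in the near and 3 of 9 in the far membrane arm, and Ndufa4. In old mice they were 5 of 6, 6 of 9, 6 of 9 and 8 of 9, and Ndufa4. The subgroup medians in old mice were -0.82, -0.56, -0.68 and -0.93. Medians in young mice were smaller, at -0.34, -0.24, -0.38 and -0.47.

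Ndufs5 had the largest difference in young mice, reading 9.12, 9.45, 9.76, 8.21 and 9.65 in HSC and 10.23, 10.21, 10.30 and 9.55 in GMP, or -0.84 ± 0.28 (adjusted p = 0.0360). Only young GMP replicate 4 fell among the HSC arrays. In old mice it was 9.05, 7.87 and 8.82 in HSC against 8.89, 9.13 and 9.76 in GMP and did not pass (-0.68 ± 0.35, adjusted p = 0.193), but did with the block (adjusted p = 0.0363).

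Ndufb8, a far membrane subunit, read 10.27, 10.51, 10.42, 9.49 and 10.46 in young HSC and 11.04, 11.14, 11.01 and 10.53 in young GMP, -0.70 ± 0.18 (adjusted p = 0.00676) without overlap. In old mice it read 9.36, 9.54 and 9.84 in HSC and 10.59, 10.85 and 10.84 in GMP, -1.18 ± 0.22 (adjusted p = 0.000496), the largest difference of any member there. Ndufb2 came next in young mice at -0.60 ± 0.20 (adjusted p = 0.0314), with 8.77, 9.12, 9.18, 8.26 and 9.35 in HSC and 9.74, 9.73, 9.62 and 9.05 in GMP. In old mice its difference was -0.91 ± 0.24 (adjusted p = 0.00889), from 7.78, 8.42 and 8.40 against 8.95, 9.13 and 9.24.

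At the other end, Ndufb11, Ndufv3 and Ndufb9 had the smallest differences between young HSC and young GMP. Ndufb11 was 11.69, 11.71, 11.59 and 11.54 in young GMP, inside the range of the young HSC arrays, with a difference of -0.00 ± 0.11 (adjusted p = 0.995) whose sign turned under several settings. Ndufv3 was 10.38, 10.46, 10.58 and 10.29 in young GMP, a difference of -0.08 ± 0.14 (adjusted p = 0.724). Ndufb9 was 11.42, 11.36, 11.30 and 10.86, a difference of -0.14 ± 0.19 (adjusted p = 0.648), and the sign of both turned without young HSC replicate 4. In old mice Ndufb9 was 10.66, 10.73 and 10.76 in GMP and lower in HSC by a difference of -0.66 ± 0.23 (adjusted p = 0.0442). Ndufb11 at 11.25, 11.44 and 11.54 and Ndufv3 at 10.50, 10.31 and 10.47 in old GMP did not pass there, with adjusted p of 0.0536 and 0.0931, and passed with the block, at 0.0265 and 0.0160.

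Genes around complex I were compared in old against young HSC. Over all genes 9.22% were called lower there and 2.25% higher. In groups 8, 9 and 10 of the 10 groups by mean level, 17.2%, 25.6% and 29.1% of all genes were called lower. Of 15 measured assembly factors, which build the complex and do not stay in it, 3 fell and 0 rose: Ndufaf1 (-0.85, adjusted p = 0.0194), Ndufaf5 (-0.72, adjusted p = 0.0397) and Ndufaf2 (-0.65, adjusted p = 0.0324). Their median was -0.36. Ndufab1, the acyl carrier protein that is a complex I subunit outside the name rule, read 8.36 to 8.78 over the old and 8.69 to 9.81 over the young HSC arrays, a difference of -0.77 ± 0.20 (adjusted p = 0.0214), with overlap.

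Of 12 regulators of mitochondrial biogenesis, Ppargc1a, the coactivator that drives respiratory genes, rose by 0.49 (adjusted p = 0.0384), and Gabpb1 and Tfb1m, a factor of mitochondrial ribosome assembly, fell by 0.60 and 0.58 on the log2 scale. Ppargc1a read 7.26 to 7.76 over the old and 6.58 to 7.31 over the young HSC arrays, with overlap. Of 13 genes used as marks of mitochondrial content, 6 fell and 0 rose, with a median of -0.43, led by Slc25a5, the ADP/ATP carrier (-0.90), Tomm20, an import receptor (-0.89), and Cycs, cytochrome c (-0.81). Of 14 enzymes of NADH or quinone metabolism beside complex I, 3 fell (Nnt, Etfdh and Ogdh, by 0.68, 0.51 and 0.40 on the log2 scale). Beside these counts, 9.22% of all genes were called lower and 2.25% higher. In the brightest of the 10 groups by mean level and the next, 29.1% and 25.6% of all genes were called lower.

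Other families of the same organelle were lower in old HSC as well. The median was -0.63 in complex III, with 6 of 9 genes called lower, and -0.59 in complex V, the ATP synthase, with 11 of 17. It was -0.27 in complex II with 2 of 4, -0.26 in complex IV with 6 of 14, and -0.53 in the mitochondrial ribosomal proteins with 35 of 74. The complex I genes had 25 of 34 and -0.61. Over all genes 9.22% were called lower, with 29.1% and 25.6% in the brightest of the 10 groups by mean level and the next. No test of a difference between families was made, so the lower level was not shown to be particular to complex I.

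Markers of other cell types were compared between old and young HSC on the same arrays. Of the T and NK cell list 1 of 5 genes rose and 1 fell, with a list mean of 6.81 ± 0.08 (SD, n = 3) in old and 6.51 ± 0.12 (SD, n = 5) in young HSC. Of 4 measured erythroid markers 1 rose, and of 4 endothelial markers 1 fell. Over all genes 9.22% were called lower and 2.25% higher. The lists for HSC, GMP, mast cells and basophils, B cells, megakaryocytes, macrophages and mature neutrophils had 0 genes called (limma). Whether other cells had a part in the level of the complex I genes was not tested.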

How the data were processed

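RNA of sorted mouse HSC and GMP was hybridised to 15 Affymetrix arrays. The deposited series matrix holds log2 expression values per probe set. RMA, affy and limma are named per the submitters' processing notes; their versions and roles are not given in the sources used here. The genome build is not given in the sources used here. Of 23309 probe sets, 20728 carried 1 gene symbol in the platform annotation, 1174 several and 1407 none. The brightest probe set of each symbol was kept, giving 19296 genes, with no filter on low values. Of the 38 complex I probe sets, all 38 had their Entrez ID in the RefSeq gene table, and 0 symbols differed there.

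With limma 3.58.1 (lmFit and eBayes, R 4.3.3), 1 model with a mean for each group took in all 15 arrays. A gene was called at a Benjamini-Hochberg adjusted p under 0.05, adjusted across the 19296 genes. The script was tested on simulated data. The members and gene lists were chosen with earlier results of these data known, so no p-value over a list is given. Values on every array are given for the 6 largest decreases and the 2 smallest in HSC, the core genes, the 2 smallest p-values in GMP and in the difference of differences, the 3 largest and 3 smallest differences between young HSC and GMP, the X-linked genes and Ndufa4. Exceptions are stated. Alternatives covered normalization, covariates, dim genes, probe set choice, the arrays fitted, array weights, replicate numbers as a block and each array left out. All 4 same-numbered pairs of young HSC and GMP arrays deviated together (correlation of deviations from the group means over genes 0.16 to 0.52), so these numbers were taken as pairing; for old HSC and GMP 2 of 3 pairs passed 0.1 (0.05 to 0.42), and for old with young arrays 2 of 12 (-0.27 to 0.15). The labels do not say what a number marks. Age and number were therefore added as a fixed block between cell types and as a random block (duplicateCorrelation, consensus correlation 0.34) between ages. Arrays give no read depth, and the number of arrays limits the precision.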

Additional observations from a re-analysis of the deposited data

Results flagged for a closer look

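Arrays far from the rest of their group were looked for in 44 sets of young HSC or young GMP values (the named genes, the complex I mean and the interquartile range), by dividing the gap between the extreme array and its neighbour by the range of the group. The sets were read on the same few arrays and are not independent. The 1 in 20 that chance gives holds for a single set, so the count of sets cannot be set against it. The gap share passed the critical value of Dixon's test in 10 of the 44 sets. In young HSC it was replicate 4, as the lowest array, for Ndufb10 (gap share 0.762, level 9.29 with the next array at 10.38), Ndufb3 (0.803, 7.78 with the next at 8.85), Ndufb8 (0.765, 9.49 with the next at 10.27) and Ndufs3 (0.856, 9.85 with the next at 10.59). In young GMP it was replicate 4, again lowest, for Ndufa1 (0.875, 11.83 with the next at 12.18), Ndufb6 (0.905, 11.20 with the next at 11.67), Ndufs3 (0.944, 10.35 with the next at 10.79), Ndufs5 (0.886, 9.55 with the next at 10.21) and Ndufv1 (0.899, 9.58 with the next at 9.98). Ndufa10 was the exception, with young GMP replicate 3 lowest at 11.39 and the next array at 11.46 (gap share 0.842). Both replicate 4 arrays also had the lowest means of the Y-linked genes, 4.94 and 5.20, and the narrowest spread of their groups, with interquartile ranges of 2.15 and 2.08. The part of these in the low readings was not tested.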

How the results depend on the processing

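All 34 differences between old and young HSC were negative under the alternatives run, except with the interquartile range as a covariate, where 32 were, but the number called was not stable. The counts in the report were, for all genes, 2213 in HSC with age, 0 in GMP with age and 18 in the difference of differences, and 25, 0, 11 (HSC against GMP in young mice), 26 (in old mice) and 0 for complex I genes. After quantile normalization 1328 genes were called in HSC with age, with 11 complex I genes, and 16 complex I genes between old HSC and old GMP, at a median of -0.48. With the interquartile range as a covariate the counts in HSC were 105 genes and 0 of complex I, 25 complex I genes were called between young HSC and GMP, the median in old mice was -0.55, and 5 genes were called in the difference of differences. Fitting only the groups compared gave 871 genes and 12 of complex I in HSC. Array weights gave 8966 genes in HSC with age, 832 in GMP with 16 of complex I, 18 complex I genes between young HSC and GMP, 7494 genes between old HSC and GMP, and 2407 genes with 18 of complex I in the difference of differences. Leaving out both young replicate 4 arrays gave 6183 genes in HSC, 188 in GMP with 4 of complex I, and 145 in the difference of differences. The Y-linked mean as a covariate, chosen after seeing the data, gave 6588, 224 with 6 of complex I, 20 complex I genes between young HSC and GMP, and 32 in the difference of differences. The causes of these shifts were not tested.

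A replicate block that gives old and young arrays of 1 number the same term, although the numbers did not link old with young arrays, gave other counts: 6280 genes called in HSC with age, 232 in GMP with 7 of complex I, 22 complex I genes between young HSC and GMP, and 41 genes in the difference of differences. With the block within each age, chosen after seeing the data, 22 complex I genes were called between young HSC and GMP, 27 in HSC with age and 0 in GMP with age and in the difference of differences (limma), with 11 and 14 complex I genes there at an unadjusted p under 0.05. Leaving out each array in turn gave 345 to 5312 genes and 4 to 33 complex I genes in HSC with age. It gave 0 to 12 genes in GMP, and 3919 to 5494 genes with 3 to 16 of complex I between young HSC and GMP. In the difference of differences it gave 1 to 192 genes with 0 to 1 of complex I.

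The sign of the difference between young HSC and GMP turned for Ndufb11, to 0.10 after quantile normalization, 0.0285 with the mean of its probe sets, 0.0191 with array weights, 0.029 without both replicate 4 arrays, and -0.0349 to 0.0597 with 1 array left out. With 1 array left out Ndufv3 ran from -0.1719 to 0.039 and Ndufb9 from -0.2629 to 0.0583, both turning without young HSC replicate 4. Of the other values of named genes under the alternatives, 492 kept direction and side of the threshold, 78 lost the call and 32 gained it.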
